A study of Mus musculus with 12 samples.

Results

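The growth hormone receptor and its STAT5 output were described in the livers of adult male mice as 10 genes, Ghr, Jak2, Stat5a, Stat5b, Cish, Socs2, Bcl6, Igf1, Igfals and Cux2. They were chosen by gene symbol, with the probe set of highest mean signal over the 12 arrays taken where a symbol had several. All 10 symbols were found among the 19505 symbols measured, each with exactly 1 of the 22206 non-control probe sets, so mean signal decided no choice. The study measured liver RNA on 1 expression array per mouse. The 2 groups were 6 offspring of UCP1-KO dams (arrays 7 to 12) and 6 offspring of WT dams (arrays 1 to 6). Uncoupling protein 1 (UCP1) lets the mitochondria of brown fat release energy as heat. All 12 mice were C57BL/6J males of 4 to 5 months, labelled heterozygous (HET) themselves, sired by HET males, housed at 23 °C and fed standard chow. The parental origin of the offspring's Ucp1 allele cannot be told apart from the dam's genotype. Litters and individual dams are not named in the labels, so siblings may be among the replicates and the p-values cover only the spread seen between these animals. The hour at which livers were taken is not given in the sources used here.

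Growth hormone is released in pulses in male mice and more evenly in females. It binds its receptor on hepatocytes, the receptor-bound kinase JAK2 phosphorylates STAT5a and STAT5b, and these enter the nucleus and switch on target genes. Among the targets are the feedback inhibitors Cish and Socs2, and Igf1 and Igfals, whose products circulate together as the endocrine arm of growth. Bcl6 is a repressor that binds many of the same DNA sites as STAT5 and is more abundant in male than in female mouse liver, and Cux2 is a transcription factor found mainly in female mouse liver.

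The 10 transcripts differed widely in how much they varied between mice. Ghr spanned 1.23-fold between its lowest and highest array (0.30 on the log2 scale), Igf1 1.34-fold, Stat5a 1.58-fold and Jak2 1.89-fold. Cux2, Stat5b and Igfals spanned 2.05-fold, 2.07-fold and 3.04-fold. Socs2 spanned 11.0-fold, Cish 58.9-fold and Bcl6 60.8-fold. Ranked by standard deviation within groups, Cish was 7th, Bcl6 14th and Socs2 39th from the top of the 15105 probe sets brighter than the background controls, whose median standard deviation was 0.28. Cux2 and Stat5b lay near that median, above 60.7% and 52.0% of them, and Ghr above 0.417%. Bright probe sets varied less: among 109 within 0.5 log2 of Ghr's mean signal the median was 0.19, and 7.34% had a smaller standard deviation than Ghr. Among the 42 as bright as Igf1, 52.4% had a smaller one than Igf1. This ordering is within each probe set, and levels of different probe sets are not compared. The array plot shows the 10 genes at 1 scale.

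**Figure D1:**
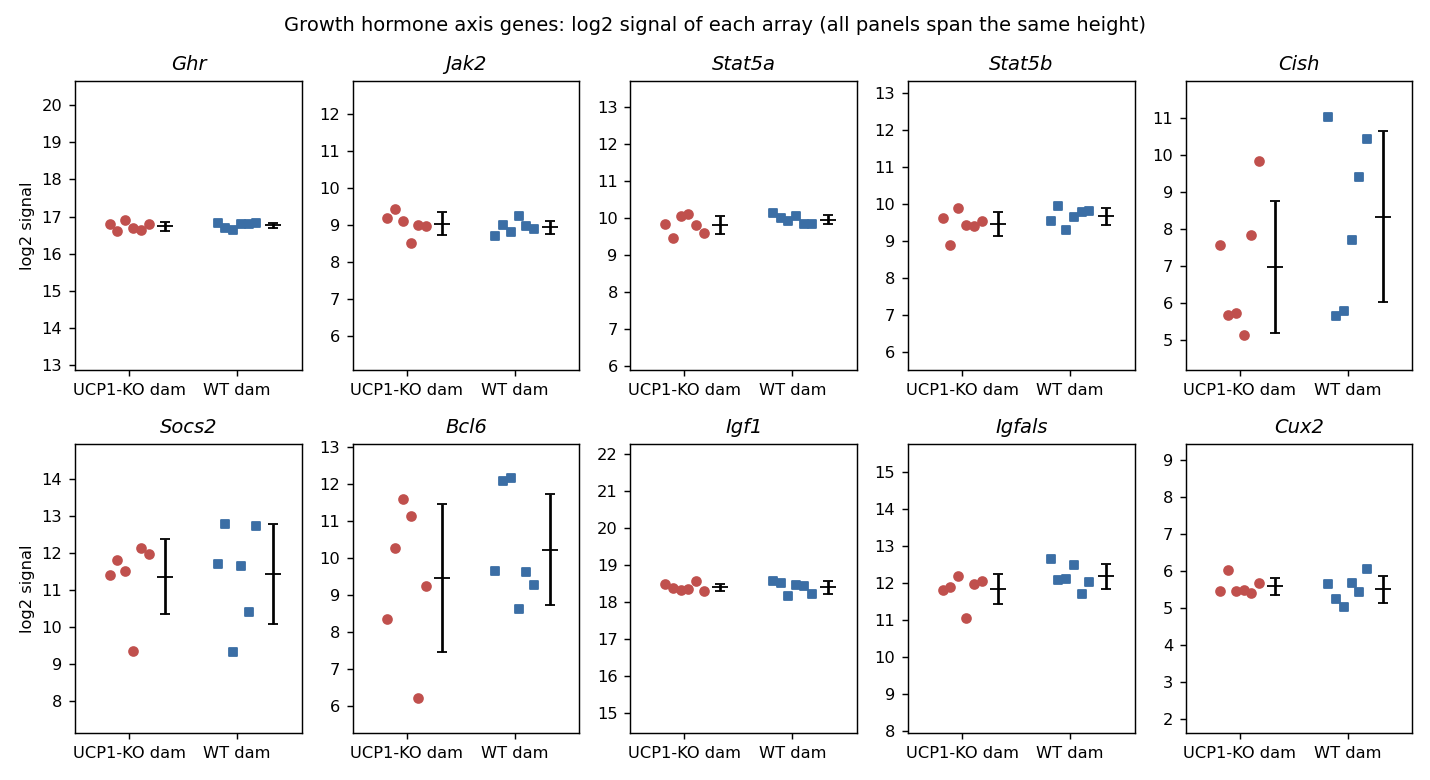
Log2 signal of the 10 genes on each array (1 point per mouse, 6 UCP1-KO dam on the left and 6 WT dam on the right of each panel, bars are mean and SD), with every panel spanning the same height. Ghr lies within 0.30 log2 over the 12 arrays, while Cish and Bcl6 spread over 5.88 and 5.93, and the groups overlap in every panel.

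No member passed the test between the groups. Of the 10, 0 reached an adjusted p of 0.05 in the limma fit of all 22206 probe sets (Benjamini-Hochberg), where 8 probe sets, or 0.036%, passed, 1 of them upward and 7 downward with a UCP1-KO dam. At an unadjusted p under 0.05, 0 of the 10 passed, against 2906 probe sets (13.1%). The groups did not overlap for 0 of the 10, against 233 probe sets (1.05%). The members' adjusted p-values were 0.457 to 0.993. The difference, UCP1-KO dam minus WT dam, was below 0 for 7 of the 10, with a median of -0.11 log2 against 0.03 over all probe sets. In whole liver, fewer cells of a type and less RNA per cell cannot be told apart in any of these values.

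Ghr, the receptor, read 16.60 at the lowest, 16.74 at the median and 16.91 at the highest in offspring of UCP1-KO dams, and 16.65, 16.80 and 16.83 in offspring of WT dams. The 2 groups covered almost the same narrow span. The difference was -0.03 log2 (95% interval -0.26 to 0.21, limma adjusted p = 0.950), so the interval held levels from 0.834 to 1.15 of the WT-dam level. Jak2, the kinase bound to the receptor, read 8.53, 9.05 and 9.44 in offspring of UCP1-KO dams and 8.70, 8.93 and 9.24 in offspring of WT dams. Both its lowest and its highest array were of UCP1-KO dams, and the difference was 0.10 (-0.22 to 0.41, limma adjusted p = 0.830). It was 0.01 to 0.20 with 1 array left out at a time, the ends being without arrays 8 and 10 of UCP1-KO dams.

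Stat5b, the STAT5 form that carries most of the growth hormone signal in mouse liver, read 8.90, 9.50 and 9.89 in offspring of UCP1-KO dams and 9.30, 9.71 and 9.95 in offspring of WT dams. Array 8, of a UCP1-KO dam, was lowest, and the difference was -0.20 (-0.54 to 0.13, limma adjusted p = 0.627). Stat5a, its close relative, read 9.47, 9.82 and 10.10 in offspring of UCP1-KO dams and 9.83, 9.96 and 10.13 in offspring of WT dams. Array 8 was again lowest, with a difference of -0.15 (-0.43 to 0.13, limma adjusted p = 0.680). With array 8 left out the difference was -0.087 for Stat5b and -0.079 for Stat5a.

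Cish, a feedback inhibitor that STAT5 induces and that blocks its docking on the receptor, was the most divided transcript. In offspring of UCP1-KO dams it read 5.15 at the lowest, 6.64 at the median and 9.83 at the highest, and in offspring of WT dams 5.64, 8.55 and 11.03. On 5 arrays, 8, 9 and 10 of UCP1-KO dams and 2 and 3 of WT dams, it lay below the negative controls, whose median was 5.96 to 6.62 over the arrays. On the other 7 it read 7.55 or more, so the groups held both states. The means were 6.96 ± 1.78 in offspring of UCP1-KO dams and 8.33 ± 2.31 in offspring of WT dams (SD, n = 6 each). The difference of -1.37 log2 had an interval of -3.26 to 0.53 (limma adjusted p = 0.539), a range of 0.104 to 1.44 times the WT-dam level. It was -0.83 without array 1 of a WT dam and -1.94 without array 12 of a UCP1-KO dam.

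Socs2, the other STAT5-induced brake on the receptor, read 9.35, 11.66 and 12.13 in offspring of UCP1-KO dams and 9.32, 11.67 and 12.77 in offspring of WT dams. The medians nearly coincided. Array 10 of a UCP1-KO dam lay far below the others of its group, and arrays 3 and 5 of WT dams were the lowest of theirs, at 9.32 and 10.42. The difference was -0.06 (-1.17 to 1.05, limma adjusted p = 0.976). Its sign hung on single arrays: it was 0.34 with array 10 of a UCP1-KO dam left out, and 0.21 or 0.20 with array 2 or 6 of a WT dam left out. With the negative control median as a covariate it was -0.68 (limma adjusted p = 0.666).

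Bcl6 read 6.22, 9.75 and 11.60 in offspring of UCP1-KO dams and 8.62, 9.63 and 12.15 in offspring of WT dams. Its lowest array was 11 of a UCP1-KO dam, at 6.22 against 8.35 on the next, and its highest 2 were 2 and 3 of WT dams. The means were 9.47 ± 1.99 in offspring of UCP1-KO dams and 10.23 ± 1.5 in offspring of WT dams (SD, n = 6 each), a difference of -0.76 (-2.38 to 0.86, limma adjusted p = 0.718). The difference was -0.11 with array 11 left out, -0.39 or -0.37 with array 2 or 3 left out and -1.19 with array 9 left out.

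Igf1, the hormone that carries much of growth hormone's action on growth, read 18.30, 18.38 and 18.56 in offspring of UCP1-KO dams and 18.16, 18.45 and 18.58 in offspring of WT dams. It was high on every array, with a difference of 0.00 (-0.25 to 0.26, limma adjusted p = 0.993), so a change beyond 0.26 log2 either way lay outside the interval. Igfals, the acid-labile subunit that holds IGF1 in the circulation, read 11.06, 11.94 and 12.20 in offspring of UCP1-KO dams and 11.72, 12.09 and 12.66 in offspring of WT dams. Array 10 of a UCP1-KO dam was lowest. Its difference of -0.35 (-0.75 to 0.06) had the smallest p of the 10 (unadjusted 0.0869, limma adjusted p = 0.457), and was -0.19 without array 10. Cux2 read 5.41, 5.48 and 6.02 in offspring of UCP1-KO dams and 5.02, 5.55 and 6.05 in offspring of WT dams. It exceeded the negative control median on 0 of 12 arrays and differed by 0.07 (-0.28 to 0.42, limma adjusted p = 0.898).

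The promoters of the members were searched for the STAT5 consensus TTCNNNGAA, which reads the same on both strands, because STAT5 and the Bcl6 protein bind such sites. RefSeq windows of GRCm38.p6, from 250 bases before to 50 after a start, held 16 windows for 9 of the 10 genes, Socs2 being the other. The letters occurred in 5 of these 16 windows, of Cish, Bcl6 and Igfals, against 2726 of all 32851 windows (8.30%). At least 2 copies were found in 0.457% of all windows and at least 3 in 0.0335%. Cish held 2, at 0 and 11 from the start, and the Bcl6 window shown held 3, at -168, -122 and -88. The other Bcl6 window held 1, at -118. Of the 3 Igfals windows 2 held 1 each, at -236 and -58, and the third held 0. Shown are Cish at chr9:107296409-107296708 (plus strand), Bcl6 at chr16:23981234-23981533 (minus strand) and Igfals at chr17:24877981-24878280 (plus strand), 5′ to 3′ with the motif in capitals. A match is a description of letters, not a shown binding site.
Cish: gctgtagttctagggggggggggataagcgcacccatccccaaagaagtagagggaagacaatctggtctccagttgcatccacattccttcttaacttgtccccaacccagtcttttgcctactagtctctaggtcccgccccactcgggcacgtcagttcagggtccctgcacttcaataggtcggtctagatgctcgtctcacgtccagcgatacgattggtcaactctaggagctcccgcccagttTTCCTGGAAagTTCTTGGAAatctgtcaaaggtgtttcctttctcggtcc
Bcl6: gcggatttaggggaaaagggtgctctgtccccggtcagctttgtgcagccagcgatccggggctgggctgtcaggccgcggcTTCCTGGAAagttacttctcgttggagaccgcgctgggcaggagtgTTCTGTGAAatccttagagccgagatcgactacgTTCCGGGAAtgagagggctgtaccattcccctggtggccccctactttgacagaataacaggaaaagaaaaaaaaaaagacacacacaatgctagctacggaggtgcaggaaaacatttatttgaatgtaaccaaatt
Igfals: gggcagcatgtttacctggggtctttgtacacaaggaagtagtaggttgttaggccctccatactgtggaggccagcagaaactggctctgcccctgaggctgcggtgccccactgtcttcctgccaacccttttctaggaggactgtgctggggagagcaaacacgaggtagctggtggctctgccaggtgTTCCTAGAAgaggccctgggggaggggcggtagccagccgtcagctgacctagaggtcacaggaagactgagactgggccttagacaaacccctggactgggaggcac

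The mice with the least Cish had the most Bcl6. The 5 arrays on which Cish lay below the negative controls were the 5 of highest Bcl6, at 10.26 to 12.15, while the other 7 read 6.22 to 9.64. Pearson's r over the 12 arrays was -0.52 (permutation p = 0.080) and Spearman's rho -0.55 (permutation p = 0.070). With each value centred on its group mean r was -0.66 (permutation p = 0.026). It was -0.61 in offspring of UCP1-KO dams and -0.75 in offspring of WT dams (n = 6 each), and -0.63 without the 2 arrays farthest from the median of Cish. After Benjamini-Hochberg adjustment over the 45 pairs of members the p-values were 0.679, 0.90 and 0.584, so the relation did not pass. Among only the 7 arrays with Cish above the negative controls r was 0.69, so the inverse order rests on the contrast of the 5 arrays with the 7. Socs2 did not divide the arrays in this way: 2 of the 5 low-Cish arrays held its lowest values, but WT-dam array 2, with Cish at 5.64, held its highest at 12.77. Its r with Cish was 0.36 (permutation p = 0.248) and its rho 0.25 (permutation p = 0.430), adjusted 0.697 and 0.90.

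**Figure D2:**
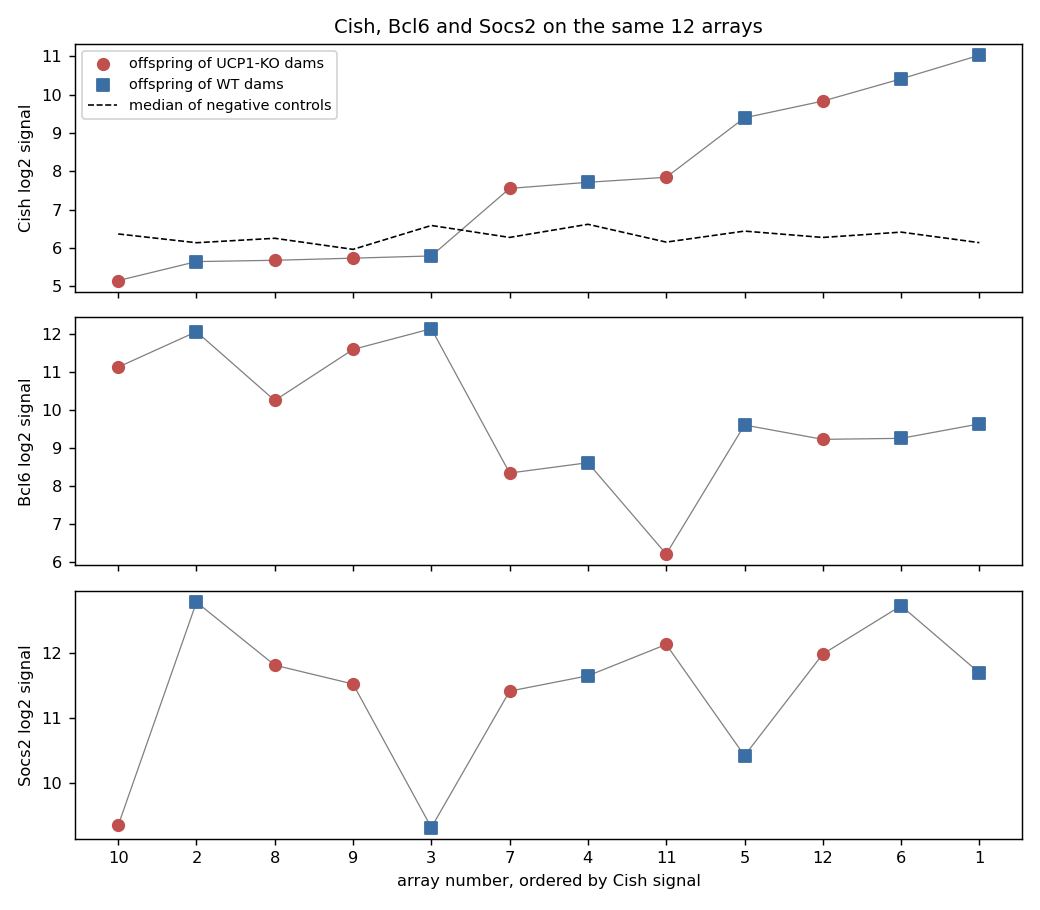
Log2 signal of Cish, Bcl6 and Socs2 (vertical axes) on the 12 arrays, ordered from left to right by Cish; circles are offspring of UCP1-KO dams, squares offspring of WT dams and the dashed line is the median of the negative controls. The 5 arrays with Cish below that line are the 5 of highest Bcl6, whereas Socs2 is lowest on arrays 3 and 10 and highest on array 2.

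Of the 45 pairs of members, 0 passed after adjustment by either coefficient or after centring, and 1 by r, 1 by rho and 2 after centring had an unadjusted permutation p under 0.05. Pearson's r was -0.55 to 0.72 with a median of 0.15, and 29 pairs were above 0. The highest was that of Ghr with Stat5b, at 0.72 (permutation p = 0.006, adjusted 0.275) and rho 0.67 (permutation p = 0.020, adjusted 0.90). It was 0.88 in offspring of UCP1-KO dams and 0.37 in offspring of WT dams, and 0.54 without arrays 8 and 11. Without WT-dam array 2 it was 0.88 and passed (permutation p adjusted 0.0018). Stat5a and Stat5b had r = 0.54, which was 0.04 without the 2 arrays farthest from the median of Stat5a. Ghr and Cish had 0.14 in offspring of UCP1-KO dams but 0.92 in offspring of WT dams, and 0.48 over all. Socs2 and Igfals had 0.92 in offspring of UCP1-KO dams and 0.21 in offspring of WT dams. Without arrays 3 and 10, the lowest for Socs2, their r was 0.20, against 0.49 with them.

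**Figure D3:**
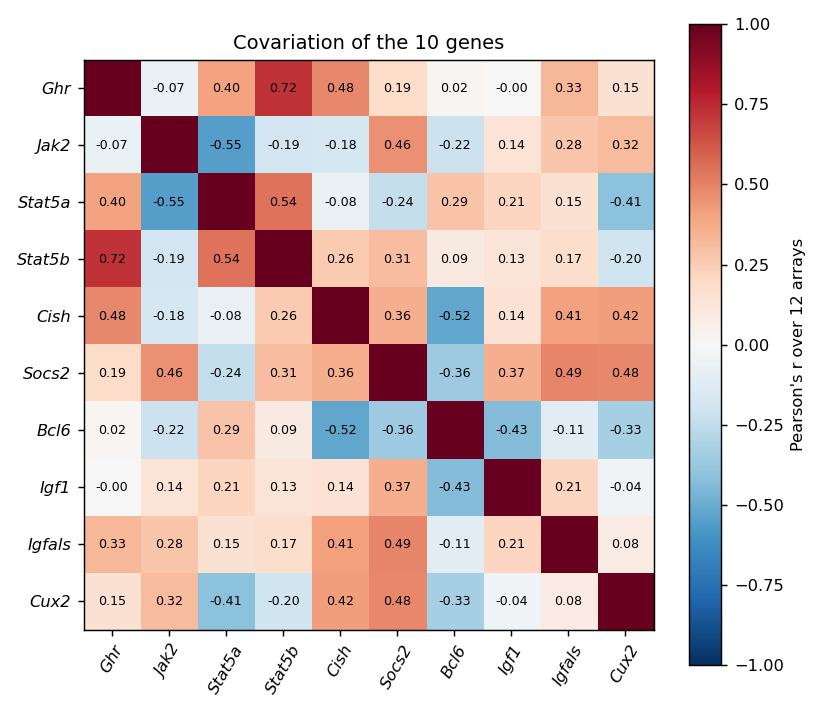
Pearson's r over the 12 arrays for each pair of the 10 genes, as colour from -1 (blue) to 1 (red) and as the printed value. Ghr with Stat5b (0.72) and Jak2 with Stat5a (-0.55) are the extremes, and the median over the 45 pairs is 0.15.

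Cish had company beyond the 10 genes. A transcript was said to follow a member if its signal tracked the member's across arrays in a limma fit that also held the group, at an adjusted p under 0.05 over the other 22205 probe sets. For Cish 23 probe sets (0.104%) did, 20 in the same direction and 3 in the opposite one. An unadjusted p under 0.05 was found for 1093 (4.92%). For Socs2, Bcl6, Igf1 and Cux2 the count was 0 (0%). At an unadjusted p under 0.05 they had 1282 (5.77%), 1178 (5.31%), 1235 (5.56%) and 1003 (4.52%). No other member followed Cish, the nearest being Bcl6 (limma adjusted p = 0.484). The 23 stood for 20 gene symbols, with Nudt7 on 2 probe sets and 2 probe sets unnamed. The 23 were selected on these 12 arrays, so the size and sign of their r in either group, which was at least 0.72 in size in offspring of UCP1-KO dams and 0.74 in offspring of WT dams, are a description only. On the 7 arrays with Cish above the negative controls, 0 probe sets passed. All 23 kept the sign of their r there, at 0.49 or more in size, which is again a description only. That setting has fewer arrays.

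Phlda1, a pleckstrin homology-like domain protein, was the closest to Cish. It read 9.05, 9.83 and 12.87 at the lowest, median and highest in offspring of UCP1-KO dams, and 8.68, 11.80 and 13.35 in offspring of WT dams. It was lowest on the low-Cish arrays of both groups, and its r with Cish after centring was 0.96 (limma adjusted p = 1.46e-05). Myc, a growth regulator and early growth hormone target, read 6.72, 8.00 and 9.59 in offspring of UCP1-KO dams and 7.65, 9.40 and 12.35 in offspring of WT dams (r = 0.91, limma adjusted p = 0.00117). Its 3 highest arrays, 1, 5 and 6 of WT dams, were among the 4 with the most Cish. Onecut1, a liver transcription factor that growth hormone induces, read 9.44, 12.26 and 13.58 in offspring of UCP1-KO dams and 10.30, 13.12 and 14.06 in offspring of WT dams (r = 0.84, limma adjusted p = 0.0163). It was below 12 on the 5 low-Cish arrays and above it on the other 7.

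The pioneer factors Foxa1 and Foxa2 both had r = 0.89 (limma adjusted p = 0.0173 and 0.0196), the forkhead factor Foxq1 0.90 (0.00174) and the lipid-regulating nuclear receptor Pparg 0.89 (0.0142). Arid5b, an AT-rich interaction domain protein, had 0.93 (limma adjusted p = 0.000474). Prox1, a homeobox factor of hepatocytes, ran the other way at -0.92 (limma adjusted p = 0.00665). It read 12.80, 13.55 and 13.94 in offspring of UCP1-KO dams and 12.60, 13.53 and 14.31 in offspring of WT dams. Ppp1r3c, which targets a phosphatase to glycogen, had -0.86 (0.0142) and the polo-like kinase Plk2 -0.88 (0.0269), whereas its relative Plk3 had 0.86 (0.00865). The others, with r of 0.85 to 0.90, were Nudt7, a peroxisomal enzyme that splits coenzyme A, Resf1, the transporter Slc17a8, Zyg11a, Chac1, the esterase Ces3b, 1700018L02Rik and Gm14403. Of these Chac1 lay below the negative control median on every array. Between the groups 0 of the 23 passed and 5 had an unadjusted p under 0.05, where 13.1% of all probe sets did. Of the 23, 19 lay below 0, as did Cish, which they were selected to track within the groups, in either direction.

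**Figure D4:**
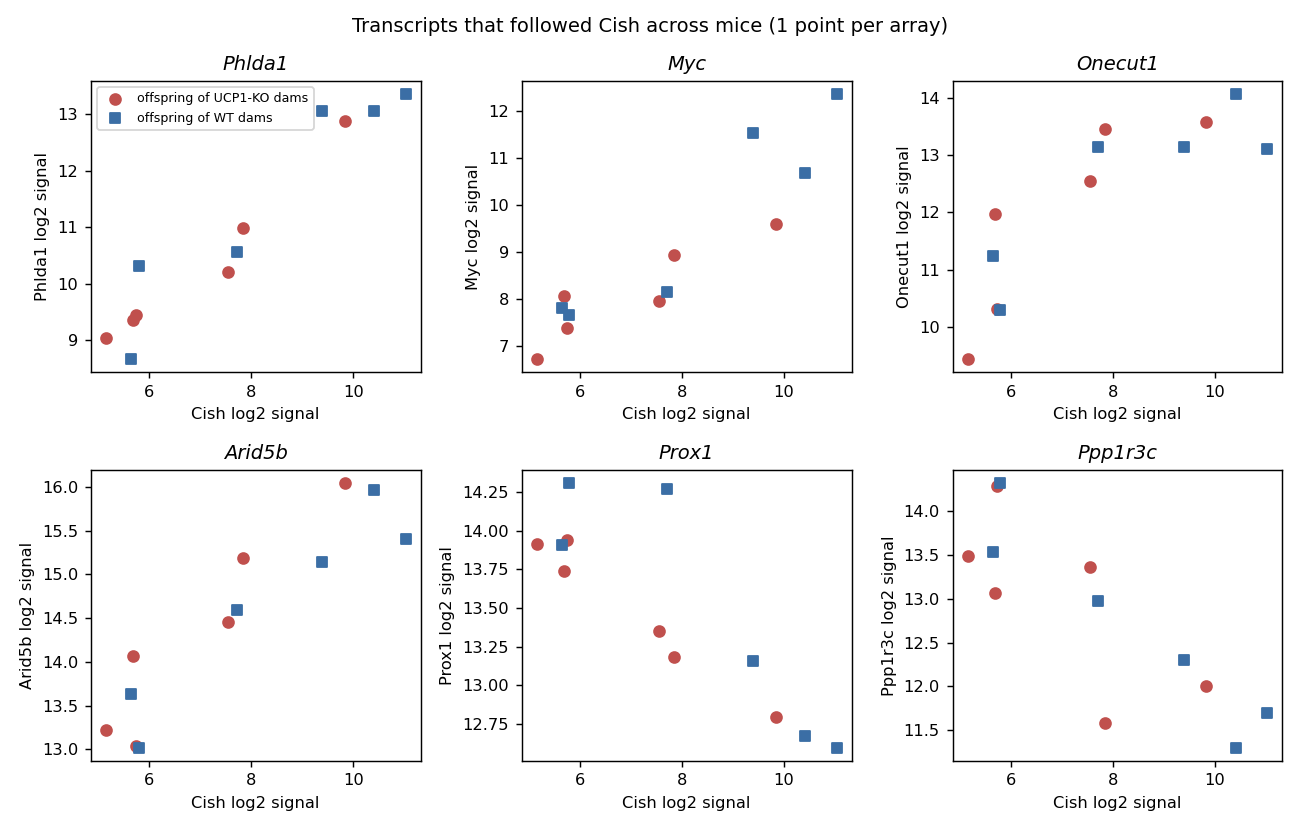
Log2 signal of 6 transcripts that followed Cish (vertical axes) against Cish on the same array (horizontal axes), 1 point per mouse, with circles for offspring of UCP1-KO dams and squares for offspring of WT dams. Phlda1, Myc, Onecut1 and Arid5b increase with Cish and Prox1 and Ppp1r3c decrease, in both groups. The fit that selected them held 1 slope for both groups, so a shared direction is partly built in. For Myc, array 12 of a UCP1-KO dam (Cish 9.83) reads 9.59, and array 5 of a WT dam (Cish 9.40) reads 11.53.

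The number that followed Cish was 7 to 28 when 1 array was left out. Leaving out array 12 of a UCP1-KO dam left 7 (all 7 among the 23), array 2 of a WT dam 10 (9 shared) and array 3 of a WT dam 12 (12 shared). Of the 15 followers with a window in the promoter table, 1, Arid5b, held TTCNNNGAA. Markers of other cell types were set against Cish, Socs2 and Bcl6. Of 36 such relations, with 11 marker lists and the negative controls, the smallest adjusted permutation p was 0.163, for Cish with the cholangiocyte list (r = -0.75, permutation p = 0.005, rho = -0.68). Of that list 4 of 5 genes were measured and 2 of the 4 lay below background. Its array means were 6.03 to 6.37 in offspring of UCP1-KO dams and 6.04 to 6.41 in offspring of WT dams, and their part in the Cish result was not tested. The 6 hepatocyte markers averaged 18.22 to 18.33 over the arrays of UCP1-KO dams and 17.98 to 18.34 over those of WT dams, far above the background controls at 5.02 and 5.00. Bcl6 and these markers had r = -0.55 (permutation p = 0.071, rho -0.57), and -0.53 after centring (permutation p = 0.028, adjusted 0.368). Without the 2 arrays farthest from the Bcl6 median r was -0.24, so that relation rests on them. Other lists had larger r with Bcl6 without those 2 arrays, given here without a test. Over the 11 lists r was then -0.24 (hepatocyte) to 0.82 (T and NK cell), with 0.74 for cholangiocyte and 0.71 for stellate cell markers. Of the 5 T and NK cell markers 3 lay below background. Socs2 and the 6 Kupffer cell markers had r = 0.54 (permutation p = 0.065) and rho 0.70 (permutation p = 0.014, adjusted 0.333). Here r was 0.58 without the 2 arrays farthest from the Socs2 median. WT-dam array 2, which had the most Socs2, was highest for 6 of these 6 markers, with a mean of 10.58 against 9.08 to 9.95 on the other arrays. The part of any marker list in the values of these members was not tested.

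Genes close to each of the 5 members in pattern were also ranked, over the 12 arrays after centring, among 12968 candidates. For Socs2 the nearest was Cd14, a lipopolysaccharide co-receptor, at r = 0.92, and the most opposed Fbxl6, an F-box protein, at -0.89. For Bcl6 they were Enoph1, an enzyme of methionine salvage, at 0.94 and Fam185a at -0.91. For Igf1 they were Dnm3, a dynamin, at 0.96 and Yipf2 at -0.90, and for Cux2 the growth factor Nrg1 at 0.90 and the fasting-responsive factor Klf15 at -0.90. None of these 8 passed in the limma fits. Cd14, Dnm3 and Nrg1 had mean signals of 5.84, 5.71 and 6.04. These lay below the mean of the negative control medians, 6.21 for arrays of UCP1-KO dams and 6.39 for those of WT dams. Cux2 itself exceeded the negative control median on 0 of the 12 arrays, so genes were ranked against values near the floor. For Cish, Mcm10 stood among the nearest at 0.93 but did not pass (limma adjusted p = 0.0690), and Pop1 was the most opposed gene that did not pass, at -0.90.

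Of the other genes of the pathway, none passed between groups. Among 28 measured JAK and STAT signalling genes 0 passed, 4 had an unadjusted p under 0.05, near the 13.1% of all probe sets, and the median difference was 0.08. Sh2b3, an adaptor that restrains JAK2, read 7.39 ± 0.32 in offspring of UCP1-KO dams and 8.05 ± 0.27 in offspring of WT dams (-0.66, limma adjusted p = 0.117). Lepr, the leptin receptor, read 7.16 ± 0.76 in offspring of UCP1-KO dams and 6.26 ± 0.51 in offspring of WT dams (0.90, limma adjusted p = 0.208). Among 15 IGF receptors and binding proteins 0 passed, 0 had an unadjusted p under 0.05 and the median was 0.06. Igfbp1, a binding protein that varies with fasting, read 9.85 ± 1.62 in offspring of UCP1-KO dams and 9.70 ± 1.76 in offspring of WT dams.

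Of 17 early growth hormone response genes 0 passed between groups and 3 had an unadjusted p under 0.05, near the share of 13.1% over all probe sets, with a median difference of -0.13. Their median r with Cish after centring was 0.39, against 0.01 over all probe sets, and 14 of the 17 were above 0. Myc and Onecut1 followed it, and Gadd45g, a growth arrest gene, had r = 0.72 without passing. Gadd45g read 6.24, 6.96 and 7.43 in offspring of UCP1-KO dams and 6.39, 8.69 and 10.08 in offspring of WT dams (difference -1.58, limma adjusted p = 0.212). Arrays 1, 2, 5 and 6 of WT dams lay above every array of UCP1-KO dams. Egr1 and Fos, which are among the immediate early genes of the list, had r = 0.02 and 0.07 with Cish. They do not stand for the list, whose median r was 0.39. Fos, Fosb, Ier3, Socs1, Socs3, Gadd45b and Nr4a1 lay below the negative control median on every array. They count among the 17, so part of the list was read near the floor.

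Among the male-biased genes, which growth hormone pulses maintain, 1 mouse stood apart. UCP1-KO-dam array 11 held the lowest value of 15 of the 16 measured male-biased genes, the exception being Mup20, while 8.87% of all 22206 probe sets were lowest on that array. This was also the array of lowest Bcl6, at 6.22. The mean of the 16 genes was 14.45 on it, against 15.55 to 16.06 on the other arrays of UCP1-KO dams and 15.50 to 16.20 on those of WT dams. Hsd3b5, a male-specific steroid dehydrogenase, and Slco1a1, an organic anion transporter, were named after their values were seen. Hsd3b5 read 9.92 on array 11, 15.08 to 16.47 on the other arrays of UCP1-KO dams and 15.73 to 16.61 on those of WT dams. Slco1a1 read 13.77 on array 11, 16.17 to 16.62 on the others of UCP1-KO dams and 16.07 to 16.63 on those of WT dams. The female-biased genes were less uniform there: array 11 had their highest mean (8.74) and the highest value of 4 of the 21, against 5 of 21 on array 9 of a UCP1-KO dam and 4 of 21 on array 5 of a WT dam. Of all probe sets 10.8% were highest on array 11. One of its 4, Cyp17a1, a steroid hydroxylase also picked by its value, read 15.09 on it against 7.88 to 11.32 on the other arrays of UCP1-KO dams and 6.41 to 9.80 on those of WT dams.

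**Figure D5:**
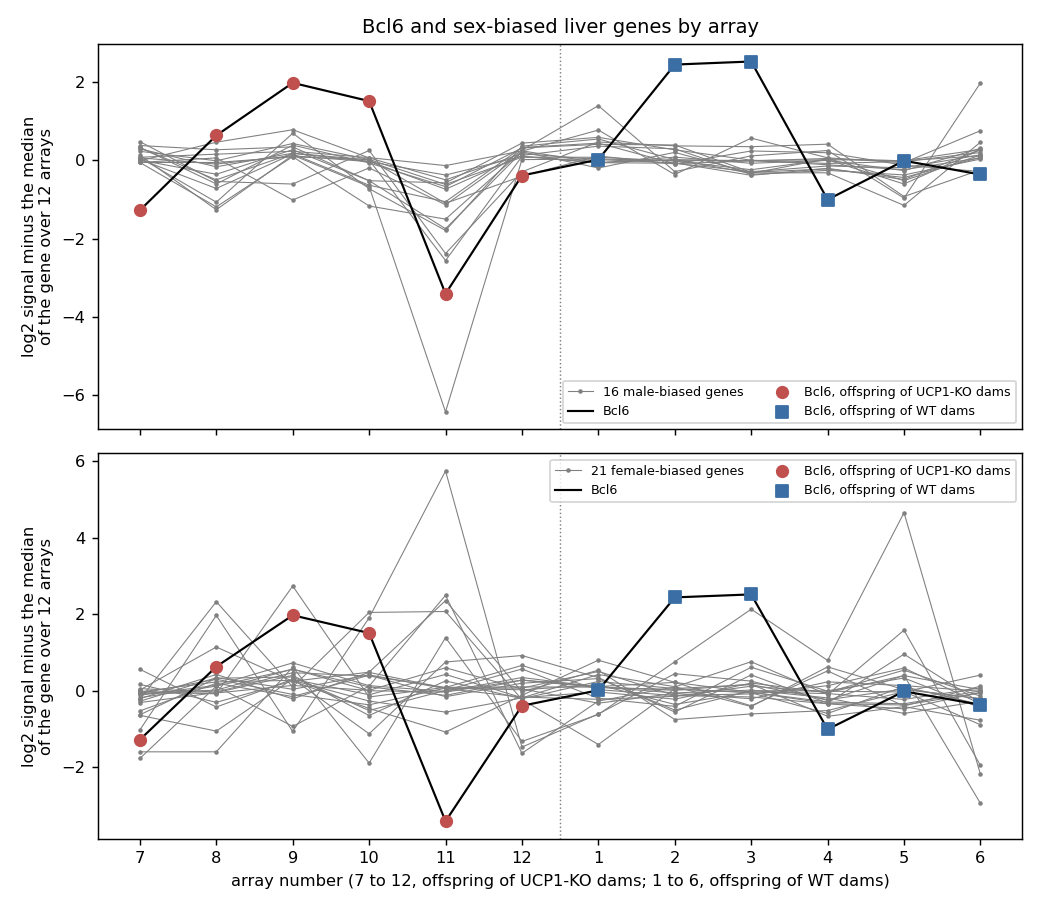
Log2 signal of Bcl6 (black line with circles for UCP1-KO dam and squares for WT dam) and of 16 male-biased (top) or 21 female-biased (bottom) liver genes (grey), each minus its own median over the 12 arrays, by array number. On array 11 Bcl6 and 15 of the 16 male-biased genes take their lowest values. The highest values of the female-biased genes are spread over several arrays, with 5 on array 9 and 4 each on arrays 11 and 5.

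The feedback transcripts were not low on array 11: Cish read 7.84 and Socs2 12.13 on it, both above the medians of its group. Ghr read 16.63, the second lowest of the 12 arrays, Igf1 18.56 and Igfals 11.98. Array 11 also had the highest mean of the glucocorticoid response genes, at 11.99. The other arrays of UCP1-KO dams had 10.75 to 11.40 and those of WT dams 10.71 to 11.88. The mean of 3 B cell markers was highest on array 11 too (5.94, against 5.32 to 5.65 and 5.19 to 5.77). These B cell means lay below the negative control median on every array, and 1 of the 3 markers was highest on array 11. The part of either list in the male-biased values of array 11 was not tested. The array of lowest Cish, Jak2 and Igfals and of the group's lowest Socs2 was another one, array 10, on which the male-biased genes averaged 15.64. Between the groups 0 of 16 male-biased genes passed, 12 lay below 0 and the median was -0.18. Without array 11 the median was 0.02, with 8 of 16 below 0, close to the 0.03 over all probe sets. Susd4, a complement regulator, had the smallest p, with -0.89 (limma adjusted p = 0.212), and Selenbp2, a selenium-binding protein, -0.76 (0.422). Of 21 female-biased genes 0 passed, 13 lay above 0 and the median was 0.05, which was 0.06 without array 11. Abcd2, a peroxisomal fatty acid transporter, had 1.39 (limma adjusted p = 0.188) and the receptor Ntrk2 1.08 (0.190). Several of these families have near-identical members, so their probe sets may share RNA.

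Lists of neighbouring processes gave no call between groups either. The 9 lipid genes known to rise where STAT5 is lost had a median difference of -0.02. Among them Cidea and Lpl, 2 of the 9, had an unadjusted p under 0.05, where 13.1% of all probe sets did. Their differences were 0.39 and 0.38 (limma adjusted p = 0.294 and 0.356). Pparg, in this list, followed Cish, while the list's median r with Cish was 0.07. Of 17 clock genes 0 followed Cish. Nfil3 had r = -0.73 and Dbp, Nr1d2 and Per3 0.68, 0.66 and 0.65, and Npas2 differed by -1.60 without passing (limma adjusted p = 0.118). Of 12 glucocorticoid response genes 9 had r with Cish below 0, with Tsc22d3 at -0.68 and Klf9 at 0.73, and Fkbp5 differed by 0.44 (limma adjusted p = 0.212). Of 17 acute phase genes 0 passed, Lrg1 having the smallest adjusted p, 0.0596, with -1.02. An unadjusted p under 0.05 was found for 5 of these 17, against 13.1% of all probe sets. It was found for 1 of the 17 clock genes and 2 of the 12 glucocorticoid response genes. The part of clock, glucocorticoid and acute phase state in the spread of Cish was not tested.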

How the data were processed

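The deposited values are log2 signals, 1 per probe set and array, which the authors made by RMA in the Transcriptome Analysis Console (programs per the submitters' processing notes). Versions are not given in the sources used here. RMA corrects background, normalizes the arrays to each other and so reduces a shift of most genes. The 6640 control rows were left out, and 22206 probe sets were tested without a filter. Exactly 1 symbol was given to 19572 of them. Each was fitted in R 4.3.3 with limma 3.58.1 (lmFit, eBayes, two-sided), with the dam's genotype as the only term, or with a member's signal beside it. Benjamini-Hochberg adjustment was used, with 0.05 as the threshold. Correlations were tested with 100000 two-sided permutations (numpy 2.4.6, with ranks from scipy 1.17.1), within groups for centred values. Both steps were tested on simulated data. Arrays between any 2 mice had r of 0.985 to 0.992. The members and lists were chosen with earlier results of these data known. Named are all members, probe sets that followed Cish, and the 5 most and 5 least like each of 5 members (from which the text takes the extremes). From each list, up to 4 genes by p and up to 4 by r with Cish are also named. Some genes, such as Egr1 and Fos, were named outside that rule. Promoters came from RefSeq (GRCm38.p6). Alternatives covered normalization, filters on dim probe sets, averaging per symbol, the variance model, array weights, the negative controls as covariate and each array left out. The number of arrays limits the precision.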

Additional observations from a re-analysis of the deposited data

Results flagged for a closer look

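Within a group of 6 arrays, a lowest or highest value was singled out where its gap to the nearest other was too large a part of the group's range by Dixon's 95% critical value. It was asked of 22 items in both groups, and 7 values met it. Chance alone singles out about 1 in 20 groups, but this count cannot be set against that, since some items were picked by their values. In offspring of UCP1-KO dams, array 10 was far below the others for Socs2 (9.35) and for Igfals (11.06). Array 11 of the same group was far below for Hsd3b5 (9.92), for Slco1a1 (13.77) and for the mean of the 16 male-biased genes (14.45), a list that holds both genes. In offspring of WT dams, array 5 was low for Hsd3b5 (15.73) and array 6 for Cyp17a1 (6.41). Hsd3b5, Slco1a1 and Cyp17a1 were picked by their values.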

How the results depend on the processing

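Under 21 alternatives (20 for Cux2), 0 of the 10 members passed between groups, and Ghr, Jak2, Stat5a, Stat5b, Cish, Bcl6 and Igfals kept the sign of their difference. Igf1, at 0.00, was -0.041 after quantile normalization, -0.025 after centring of the arrays and -0.058 with the negative controls as covariate, where Socs2 was -0.68. With 1 array left out at a time Igf1 ran from -0.043 to 0.041, Socs2 from -0.48 to 0.34 and Cux2 from -0.027 to 0.18. The 8 probe sets called between groups became 32 without the dimmer 50%, 22 with a variance trend and robust estimation, 2 with the negative controls as covariate and 1 to 112 with 1 array left out, the extremes being without UCP1-KO-dam array 8 and WT-dam array 2. The 23 that followed Cish became 7 to 28. Those that followed Socs2, Bcl6, Igf1 or Cux2 became 0 to 1 each. Pairs of members passing became 0 to 1. The setting of the 7 arrays with Cish above the negative controls was chosen after seeing the data, as were those for the sex-biased lists. In it 0 probe sets followed Cish and 1 pair of members passed. The largest r of any pair there was that of Ghr with Bcl6, at 0.95, against 0.02 over all 12 arrays. The r of Cish with Bcl6 on the 7 arrays was 0.69. That setting has fewer arrays, and the cause of the other changes was not tested. No paired analysis was possible because the groups share no replicate numbers. Cish on 5 arrays and Cux2 on all 12 lay near the floor of the arrays, where differences are compressed.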
